A study of Homo sapiens with 4 samples.

Results

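The chromatin-modifying enzymes and readers were taken as every gene with a protein_coding transcript row whose symbol begins with KDM, KAT, KMT, SETD, PRMT, BRD, EZH, DNMT, TET, SIRT or CBX followed by a number (for SETD also by B). This rule found 81 genes among the 12120 genes with a protein_coding row, and it used names only, not measured values. GENCODE release 44 has 87 coding genes of such names, and the 6 without a protein_coding row here, among them DNMT3L and PRMT8, were not analysed. For 11 members, BRD8, SETDB1 and DNMT3B among them, the transcript that this annotation marks as canonical had no row, so their levels rest on other transcripts. All libraries came from MDA-MB-231, a long-established cell line of human breast cancer without hormone receptors or HER2 amplification. Cells in 6-well plates received DMSO, the solvent, or 10 µM KH-3, a small-molecule inhibitor of the RNA-binding protein HuR, for 24 h, with 2 RNA-seq libraries for each. Nothing in the groups' labels names a genetic change, so the line is the same in both. The values used here are 1 mean normalized read count per transcript, pooled over libraries by the authors. It is not stated which libraries entered the mean, so each level may mix cells with and without KH-3 and may differ from the untreated level. No value per library was used, so there is no error, no test and no comparison of KH-3 with DMSO, and the levels below are descriptions. Neighbouring levels cannot be told apart by replicate spread.

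Histones carry acetyl and methyl groups that are added by writers, removed by erasers and bound by readers. KAT enzymes add acetyl groups to lysine and sirtuins (SIRT) remove them. EZH, KMT and SETD proteins mostly methylate lysine, KDM proteins demethylate it, and PRMT enzymes methylate arginine. Bromodomain (BRD) proteins bind acetylated lysine, and many chromodomain (CBX) proteins bind methylated lysine. DNMT proteins methylate cytosine in DNA, and TET proteins oxidise methylcytosine. Several members also act on proteins other than histones.

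The labelled line was checked against markers. VIM, AXL, MSN and CAV1, genes of mesenchymal-like cells, stood at percentiles 99.0, 98.5, 98.4 and 98.3 of the coding genes and CD44 at 82.0. ESR1 and PGR, the hormone receptors, and CDH1 and KRT20 had no protein_coding row. ERBB2 stood at percentile 18.9 and EPCAM at 27.9. The blood cell genes PTPRC and CD3E had no protein_coding row, and the endothelial gene PECAM1 stood at percentile 3.33. A percentile of 100 is the highest level.

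The rows are single transcripts, so they show which versions of an enzyme the reads were assigned to. Among coding transcripts of 1 gene at comparable levels, 26 coding segments in 16 members separated 1 row from another. Of the 26, 20 were a multiple of 3 bases long. Segments were kept only where the coding part of 1 row lay wholly within the other's, which favours such lengths. No share over all coding genes is given beside this count, so it is not a result about these enzymes. Examples are printed below from lysine demethylase KDM1A, acetyltransferase KAT5, the EZH methyltransferases (2 of the 4 EZH2 segments), arginine methyltransferase PRMT1 and the DNA methyltransferase DNMT3B, to show how the coded enzymes differ. Capitals mark the segment, and the 10 bases in lower case on each side are its neighbours in the transcript that has it. All are read from coding exons of GENCODE release 44 on hg38, 5′ to 3′ on the gene's strand.

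KDM1A, 60 bases, chr1:23044427-23044486, plus strand: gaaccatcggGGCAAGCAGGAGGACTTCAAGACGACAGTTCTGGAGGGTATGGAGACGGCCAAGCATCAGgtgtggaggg
KDM1A, 12 bases, chr1:23066060-23066071, plus strand: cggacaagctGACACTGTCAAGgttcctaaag
KAT5, 99 bases, chr11:65712280-65712378, plus strand: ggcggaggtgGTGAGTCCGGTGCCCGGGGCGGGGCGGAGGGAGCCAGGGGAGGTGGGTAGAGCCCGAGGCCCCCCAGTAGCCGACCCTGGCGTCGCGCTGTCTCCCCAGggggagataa
EZH1, 27 bases, chr17:42727635-42727661, minus strand: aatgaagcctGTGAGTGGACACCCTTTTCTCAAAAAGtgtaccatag
EZH2, 15 bases, chr7:148826454-148826468, minus strand: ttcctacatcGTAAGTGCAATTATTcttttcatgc
EZH2, 117 bases, chr7:148832634-148832750, minus strand: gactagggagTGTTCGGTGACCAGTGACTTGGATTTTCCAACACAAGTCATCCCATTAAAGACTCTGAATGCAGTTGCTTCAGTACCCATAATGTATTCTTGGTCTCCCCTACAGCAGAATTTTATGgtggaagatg
PRMT1, 54 bases, chr19:49679872-49679925, plus strand: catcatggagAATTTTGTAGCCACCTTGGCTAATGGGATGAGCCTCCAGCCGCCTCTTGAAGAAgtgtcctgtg
DNMT3B, 70 bases, chr20:32805338-32805407, plus strand: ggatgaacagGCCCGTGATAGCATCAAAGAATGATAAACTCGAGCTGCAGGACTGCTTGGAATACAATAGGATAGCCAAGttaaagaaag
DNMT3B, 119 bases, chr20:32806209-32806327, plus strand: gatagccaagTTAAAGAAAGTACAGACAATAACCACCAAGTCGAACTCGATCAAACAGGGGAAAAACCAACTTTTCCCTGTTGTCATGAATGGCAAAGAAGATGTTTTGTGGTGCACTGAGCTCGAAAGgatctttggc

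KDM1A, also known as LSD1, removes methyl groups from lysine 4 of histone H3. Its row without either segment, KDM1A-001, had 1235 mean normalized reads, and its row with both, KDM1A-002, had 563. Dividing by transcript length gave 407 and 184 reads per kb, so the row with the segments held 31.1% of the level that could be compared. The 12-base segment is known as a small exon used mainly in neurons. No row carried it without the 60-base segment, so the rows give no separate level for either. A further row of KDM1A had only 568 bases and was left out of this share.

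DNMT3B lays down new DNA methylation, and its 70-base and 119-base segments together leave the reading frame intact although neither does alone. DNMT3B-003, which lacks both, led with 47.8 mean normalized reads. DNMT3B-002 and DNMT3B-004, which carry both, had 21.2 and 13.5. On the scale per kb, the rows with both segments held 41.0% of the gene's level. The coded protein of DNMT3B-003 was the shortest of the 3, with a coding length of 2310 bases against 2499 and 2535.

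For EZH2, the methyltransferase of Polycomb repressive complex 2, all coding rows were low. EZH2-010, without the 15-base and 117-base segments, had 52.0 mean normalized reads and EZH2-004, with both, had 34.8. EZH2-006 had 12.8 and carried the 117-base segment but not the 15-base segment. The 117-base segment was therefore in 46.5% of the coding level per kb and the 15-base segment in 33.6%. Its paralogue EZH1 had 135 mean normalized reads without its 27-base segment and 119 with it, which is 46.8% of the level with the segment. PRMT1, the main enzyme of asymmetric arginine dimethylation, had 339 mean normalized reads with the 54-base segment and 166 without, and 68.1% of the compared level carried it. The row of the acetyltransferase KAT5 with the 99-base segment had 66.5 mean normalized reads, and the leading row without it had 78.1. These reads were assigned to near-identical transcripts by a statistical model, so the shares are estimates.

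**Figure D1:**
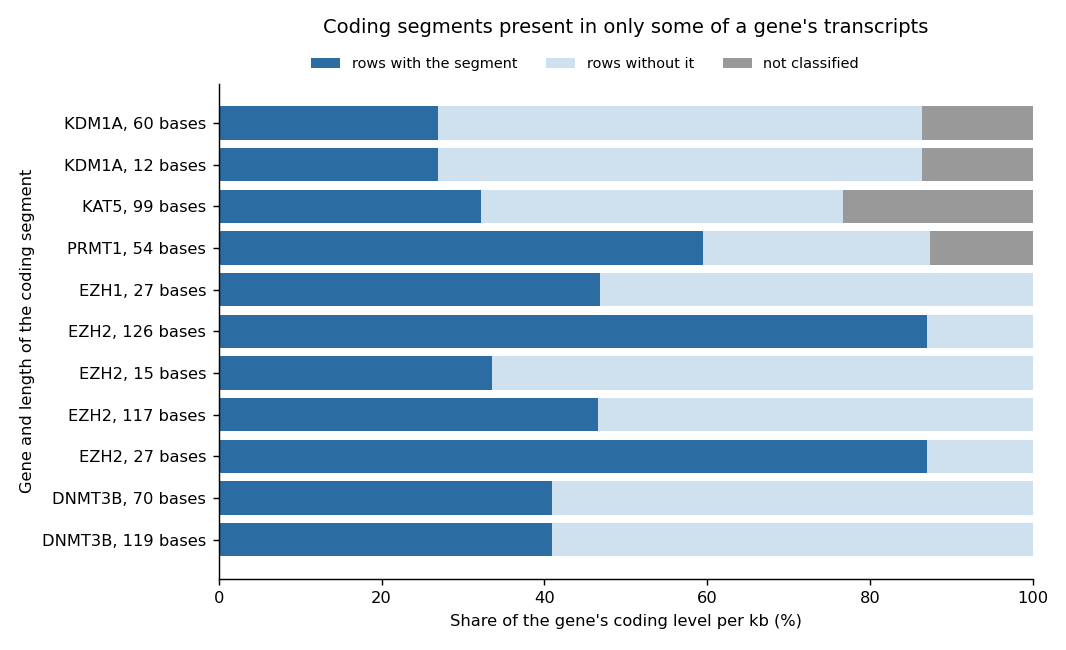
Share of each gene's coding level per kb (horizontal axis, percent) held by transcript rows with the coding segment, without it, or not classified, for the segments printed above and the 2 further EZH2 segments. The DNMT3B pair sits at 41.0%, the 15-base segment of EZH2 at 33.6%, and the 27-base segment of EZH1 at 46.8%. For KDM1A, KAT5 and PRMT1 part of the level is not classified, so their bars are shorter than the shares of the compared level.

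As a whole the members stood near the middle of the genes with a protein_coding row. Genes without such a row, CDH1 and ESR1 among them, were not ranked, so the place among all annotated coding genes is not given. A gene's level is the sum over its protein_coding rows of mean normalized reads per kb of transcript. The median level was 108 over the 81 members and 117 over all coding genes, whose quartiles were 36.6 and 306. The median percentile of the members was 47.8, and 55.9 when they were ranked among genes with a row of any type. Of the 81, 12 (14.8%) stood above the upper quartile of coding genes and 16 (19.8%) below the lower quartile. The members' levels ran from 4.58 reads per kb for the demethylase KDM6A to 2317 for the chromodomain protein CBX3, a 506-fold range.

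**Figure D2:**
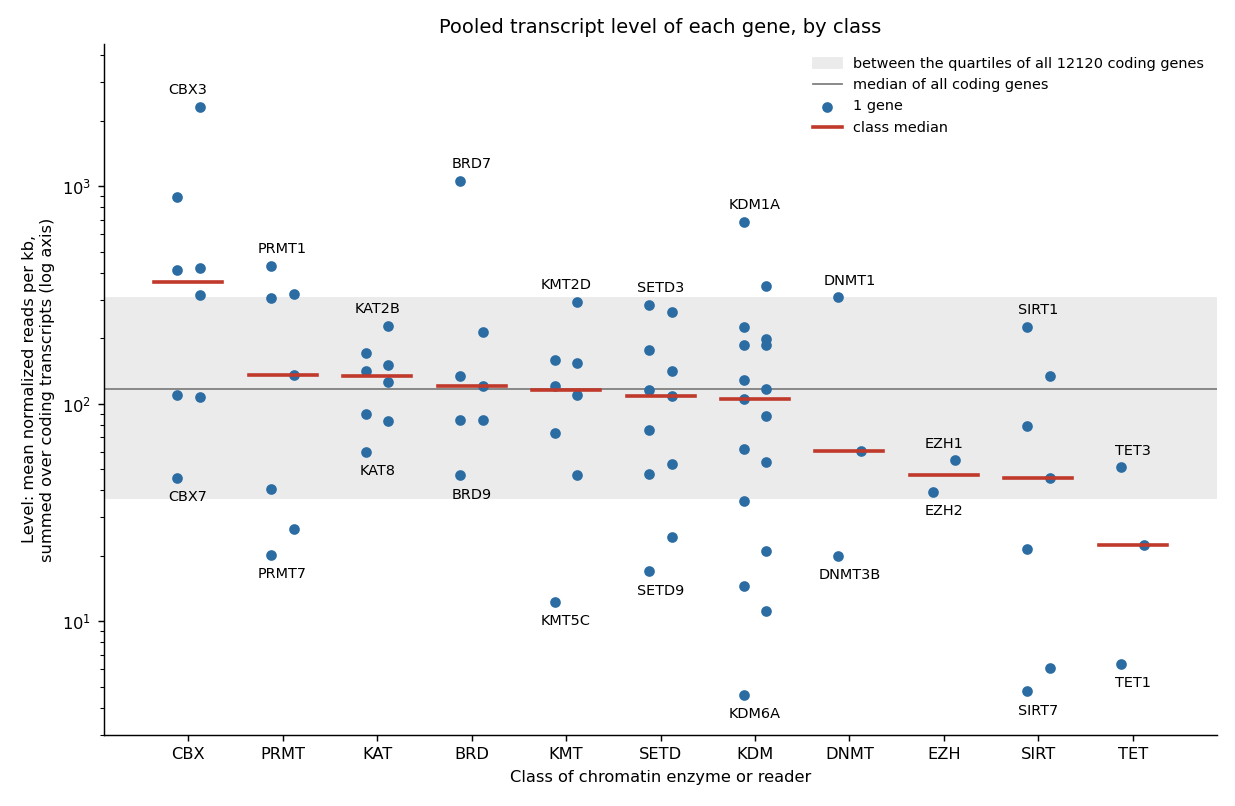
Level of each gene (vertical log axis, mean normalized reads per kb summed over coding transcripts) by class, with 1 point per gene, red bars for class medians, and the median and the range between the quartiles of all coding genes in grey. CBX genes reach from 45.6 to 2317 with a median of 363, while all 3 TET genes lie between 6.35 and 51.0, below the median of 117.

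Chromodomain readers had the highest class median, at percentile 78.4, and 5 of the 8 stood above the upper quartile. CBX3, CBX1 and CBX5 are the heterochromatin proteins HP1γ, HP1β and HP1α, which bind histone H3 methylated at lysine 9. CBX3 had a level of 2317 reads per kb (percentile 98.0), CBX1 of 889 (percentile 92.3) and CBX5 of 420 (percentile 81.7). CBX3 therefore had 5.51 times the level of CBX5, and CBX1 had 2.11 times. The ratio of CBX3 to CBX5 was 1.58 without division by length and 9.44 with the leading row of each gene alone. The order of CBX1 and CBX5 turned when reads were not divided by length. The leading CBX5 row, CBX5-002, has 11528 bases and 2329 mean normalized reads against 2232 bases and 1943 reads for CBX1-001. The annotation names 10 pseudogenes after CBX3 and 5 after CBX1, so reads of these genes could be shared with copies. Of these pseudogenes, 1 copy of CBX3 had a row.

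CBX2, CBX6, CBX7 and CBX8 belong to Polycomb repressive complex 1 and bind histone H3 methylated at lysine 27. CBX6 (409 reads per kb) was higher than CBX2 (110), CBX8 (108) and CBX7 (45.6), and had 3.74 times the level of CBX2. CBX7 had a single coding row with 186 mean normalized reads.

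Among bromodomain proteins, BRD7 stood apart. BRD7 and BRD9 are alternative subunits of different SWI/SNF remodelling complexes. BRD7 had a level of 1054 reads per kb (percentile 93.9) and BRD9, the lowest of the class, had 46.8 (percentile 29.3), a 22.5-fold ratio, or 13.5-fold with rows of all types summed. The annotation names 7 pseudogenes after BRD7 and none of them had a row. The BET proteins BRD2 and BRD3, which bind acetylated histones at active genes, had 134 and 84.3 reads per kb. BRD8, a subunit of the TIP60 acetyltransferase complex, had 8 rows, of which 5 were coding, and its leading row BRD8-002 held 42.7% of its coding level.

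Lysine demethylases were the largest class, with 17 genes and a median percentile of 47.2. KDM1A was the highest, at 685 reads per kb (percentile 89.4), and KDM1B, its paralogue, had 347. The jumonji enzymes KDM4A and KDM4B, which act on lysine 9 of histone H3, had 198 and 117. KDM5B (225) was above KDM5A (128), both erasers of lysine 4 methylation. Their ratio of 1.76 was 1.16 with rows of all types summed and 1.01 without division by length. KDM2A (105) and KDM2B (87.3), which act on lysine 36, were close together. KDM3A and KDM3B, erasers of lysine 9 methylation, had 53.9 and 185.

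The widest of the demethylase pairs was that of the lysine 27 enzymes. KDM6A (UTX) had 2 coding rows, with 16.3 and 10.4 mean normalized reads, and a level of 4.58 reads per kb (percentile 3.99). KDM6B (JMJD3) had 399 mean normalized reads over 2 rows and a level of 62.0, which is 13.5-fold higher. The 2 KDM6A rows lie close to the smallest mean in the table, 7.34, and no KDM6A row had 20 reads.

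The lysine 27 methyltransferases were low as well: EZH1 had 54.9 reads per kb (percentile 32.5) and EZH2 39.3 (percentile 26.2). Their partners in Polycomb repressive complex 2 were listed in full, 9 of 9, with a median percentile of 55.8. The core subunits EED and SUZ12 had 108 and 417 reads per kb. Both stood above EZH2, whose level counts coding rows only and leaves out a larger non-coding row described below.

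Among the methyltransferases of histone H3 lysine 4 named here, KMT2C was the lowest and KMT2D the highest by all coding rows. With all coding rows, KMT2D was the highest of the KMT class at 293 reads per kb and KMT2C had 46.8, while KMT5C, which methylates lysine 20 of histone H4, was the lowest at 12.2. The KMT2D level leans on short rows. KMT2D-001, the full-length transcript of 19419 bases, had 2321 mean normalized reads or 120 reads per kb. KMT2D-002, of 859 bases, had 121 mean normalized reads or 141 reads per kb. With KMT2D-001 alone, set against all coding rows of the other genes, KMT2D was 2.55 times KMT2C and stood below KMT2A (159) and KMT5A (153). With all coding rows of both genes, KMT2D was 6.26 times KMT2C. With the leading row per kb of each, KMT2D-002 and KMT2C-201, it was 7.24 times. KMT2B had 110 reads per kb, and SETD1A and SETD1B 141 and 75.8. Of 11 subunits of the KMT2 and SETD1 complexes, 10 were listed, with a median percentile of 70.1, among them WDR5 at 404 reads per kb and DPY30 at 725.

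In the SETD class, SETD3, an actin histidine methyltransferase, was the highest at 285 reads per kb, and SETD9 the lowest at 17.0. SETDB1, which trimethylates lysine 9 of histone H3, had 116 reads per kb over 5 coding rows, and SETDB2 had 52.9. SETD5 had 8 rows, 4 of them coding, and its leading row SETD5-004 held 72.9% of the coding level. Among arginine methyltransferases, PRMT1 was the highest at 429 reads per kb, 3.19 times PRMT5 (135), the main enzyme of symmetric dimethylation. Without division by length the ratio was 2.10. PRMT7 was the lowest at 20.2.

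By coding rows, the acetyltransferases with KAT symbols lay in a narrow band. All 8 fell between 59.9 reads per kb for KAT8 and 227 for KAT2B, a 3.79-fold range. None of them was outside the quartiles of coding genes. With rows of all types summed, KAT2A stood above the upper quartile, at percentile 89.2. By coding rows, the 9 acetyltransferases with other symbols spread more widely, from percentile 18.5 for NCOA1 to 91.2 for HAT1. KAT2A (GCN5) and KAT2B (PCAF) are alternative catalytic subunits of the SAGA-type complexes and had 125 and 227. KAT6A and KAT6B had 171 and 83.3, and KAT7 (150) was 2.51 times KAT8. This last ratio was 1.16 with rows of all types summed and 6.79 without division by length, and 44.8% of KAT8 reads lay outside coding rows. Deacetylases of the sirtuin family had a median percentile of 28.8, beside 53.4 for the KAT genes. SIRT1, a nuclear enzyme, was the highest at 225, followed by the mainly cytoplasmic SIRT2 at 134. The mitochondrial SIRT5 and SIRT3 had 79.2 and 45.2. SIRT6 and SIRT7, which act in the nucleus, had 6.11 and 4.75, each from 1 coding row. Those rows had 10.0 and 8.27 mean normalized reads, close to the smallest mean in the table, 7.34. Most reads of both genes were outside coding rows, as described below.

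In the DNA methylation class, DNMT1, which copies methylation after replication, had 307 reads per kb (percentile 75.1), DNMT3A 60.3 and DNMT3B 19.99. DNMT1 was thus 5.09 times DNMT3A, and DNMT3A 3.02 times DNMT3B. With rows of all types summed, DNMT1 was 25.6 times DNMT3A, and with the leading rows alone DNMT3A was 1.75 times DNMT3B. The TET genes fell in the order TET3 (51.0), TET2 (22.4) and TET1 (6.35), with a class median at percentile 17.9. TET1 had a single coding row of 9288 bases with 59.0 mean normalized reads. It was the lowest of the class without division by length as well, since the coding rows of TET2 had 218 reads and that of TET3 581. All 10 readers and partners of DNA methylation were listed, with a median percentile of 61.1.

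**Figure D3:**
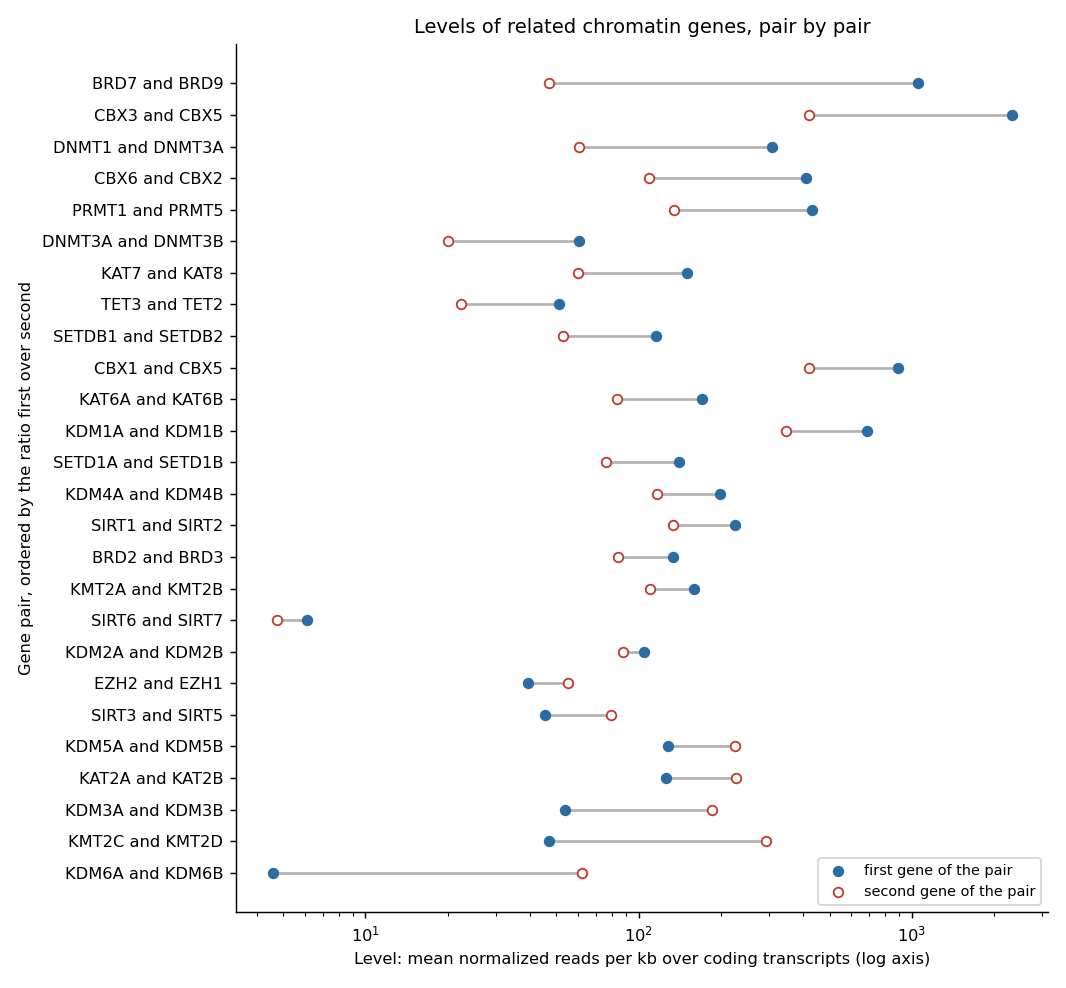
Levels of the 2 genes of each of 26 related pairs (horizontal log axis, mean normalized reads per kb over coding transcripts), ordered by the ratio of first to second. BRD7 over BRD9 (22.5-fold) and KDM6B over KDM6A (13.5-fold) are the widest pairs by coding rows, and in 14 of the 26 the ratio of the higher to the lower gene is at least 2.

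The members' reads were not all in coding transcripts. Of 311 rows, 203 were protein_coding, 54 retained_intron, 33 nonsense_mediated_decay and 20 processed_transcript. A retained intron keeps an intron in the RNA, and a nonsense-mediated decay transcript has an early stop that marks it for breakdown. The median share of reads in rows other than protein_coding was 2.99% over the members and 1.20% over all coding genes. It was over 50% in 10 members (12.3%), beside 9.46% of all coding genes. In 8 of the 10 the largest single row was not coding.

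Of the 10, 5 had a nonsense-mediated decay transcript as the largest row outside the coding type. KAT2A-002 had 1084 mean normalized reads against 390 for KAT2A-001, the only coding row, and 77.6% of KAT2A reads were outside coding rows. The coding length annotated for KAT2A-002 is 828 bases, against 2511 for KAT2A-001. EZH2-003 had 179 mean normalized reads, 64.2% of the EZH2 reads, with a coding length of 1002 bases against 2121 for EZH2-010. PRMT9-002 had 173 against 93.9 for the coding PRMT9-001. BRD2-004 had 312 against 283 for the leading coding row BRD2-023, and 58.8% of BRD2 reads were outside coding rows. DNMT1, the member with the most rows, had 10, of which 3 were coding. Its largest row outside the coding type, DNMT1-006, had 620, and 50.9% of DNMT1 reads were outside coding rows.

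In the other 5 the largest such row was a retained intron. SIRT7 was the extreme: 4 retained-intron rows, led by SIRT7-006 with 145 mean normalized reads, held 97.7% of its reads, and its coding row SIRT7-001 had 8.27. SIRT6 had 84.4% in 2 retained-intron rows, and its coding row had 10.0 mean normalized reads. PRMT7, PRMT2 and BRD9 had 62.3%, 61.3% and 52.7% of their reads outside coding rows. The levels of these genes depended on which rows were counted. With rows of all types summed and ranked among all coding genes, SIRT7 stood at percentile 44.1 instead of 4.09, KAT2A at 89.2 instead of 51.7, PRMT7 at 61.2 instead of 16.6, and DNMT1 at 95.8 instead of 75.1. KAT2A was then above KAT2B and SIRT7 above SIRT6, the reverse of the order by coding rows. The demethylase KDM3B, just under the limit at 47.3%, had 944 mean normalized reads in the nonsense-mediated decay row KDM3B-002 and 997 in the coding row KDM3B-001.

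**Figure D4:**
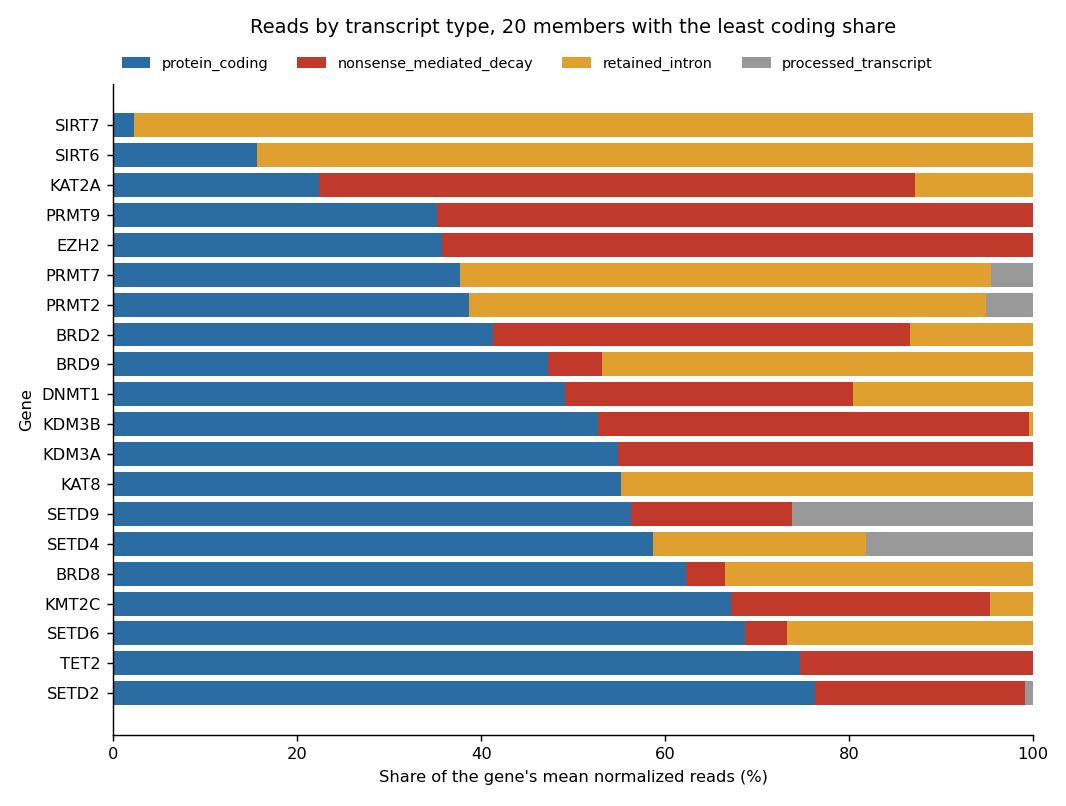
Share of each gene's mean normalized reads by transcript type (horizontal axis, percent) for the 20 members with the smallest share in coding rows. SIRT7 has 97.7% outside protein_coding rows, all of it retained intron, and EZH2 64.2%, all of it nonsense-mediated decay.

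Members also had more coding rows than other genes, 2.51 per gene against 2.17 over all coding genes. In the 60 members with at least 2 coding rows, the leading row held a median of 61.5% of the coding level, beside 67.5% over all such genes. In 15 members no row reached 50% of the level, among them DNMT3A, whose leading row DNMT3A-012 held 34.3%. The leading rows were longer as well, with a median of 3922 bases against 2920. Members whose marks are written or read in common with genes of other names were compared with those partners. Of 121 such genes 115 were listed, with a median percentile of 58.0 beside the 47.8 of the members.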

How the data were processed

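RNA was measured by TruSeq mRNA-seq in MDA-MB-231 cells, in 2 DMSO and 2 KH-3 libraries. Per the study's methods, the authors mapped reads to GENCODE release 24 transcripts with STAR, estimated reads per transcript with eXpress and compared groups with DESeq2; the labels give hg38, and tool versions are not given in the sources used here. The deposited signal is 1 mean normalized read count per transcript, pooled over libraries, with the transcript's type and length. Depth per library is unknown, so counting error cannot be given. The deposited table also holds the authors' fold change, p-value and q-value for KH-3 against DMSO, which were not used.

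With pandas 2.3.3, means were divided by transcript length in kb and summed over the protein_coding rows of a gene, and genes were ranked as percentiles. The code was tested on simulated data. Types were compared on mean reads, with a limit of 50%. Coding segments were compared between rows at 20% or more of the leading row's level, by transcript ID in GENCODE release 44, for inserts of 12 to 300 bases in all. Of 203 coding rows, 194 were found there, and 3 whose annotated coding length exceeded the row were set aside. Partner genes were matched by symbol or RefSeq synonym.

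The members and lists were chosen with earlier results of these data known. Named genes were the highest and lowest of each class, all genes of the pairs, members with over 50% of reads outside coding rows, and the 5 members with most rows. The last places of that list were tied between 4 members at 7 rows, all named under other parts of the rule. The printed segments, KDM3B's types, the values of CBX8, KMT5A, NCOA1 and HAT1, CBX7's, KDM6A's and DNMT3A's rows and the partner genes with values were picked after the values were seen. Alternatives were the leading row alone, rows of all types, no division by length, a minimum of 20 mean reads, class means, another set of ranked genes and shares per kb. Some results, among them those of some members and segments, are not reported here.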

Additional observations from a re-analysis of the deposited data

How the results depend on the processing

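The class medians moved by over 10 percentile points in 7 of 66 recomputed values. Without division by length the median percentile was 65.3 for KDM, 64.3 for KMT, 62.8 for SETD, 43.2 for PRMT and 38.9 for TET genes. With the leading coding row alone it was 41.6 for PRMT and 20.7 for DNMT genes. On the scale per kb, 16 members in place of 10 had over 50% of their signal outside coding rows. Of 102 recomputed pair ratios, 76 kept within 1.5-fold, 22 moved by more with the same order, and 4 turned. With rows of all types summed, the log2 ratio of KAT2A over KAT2B was 1.75 and that of SIRT6 over SIRT7 was -1.21. Without division by length, that of BRD2 over BRD3 was -0.46 and that of CBX1 over CBX5 was -0.42. The order held in the other 22 pairs, under 4 alternatives in 21 of them and under 3 for KDM6A and KDM6B, since no KDM6A row had 20 mean reads. A minimum of 20 mean reads left 76 of the 81 members. The count over 50% among members whose canonical transcript was listed was 8, an alternative chosen after seeing the data. No paired analysis was possible because the table holds only a mean over libraries, and for the same reason leaving out a replicate was not run.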
